A study of Mus musculus with 16 samples.

Results

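The genes described here encode the integrin chains and selectin ligand with which blood stem cells attach to vessel walls and marrow: Itga4, Itga5, Itga6, Itgal, Itgb1, Itgb2, Itgb7, Selplg and Vcam1. They were chosen by name as adhesion molecules of homing, and all 9 were among the 14829 genes of the count table. All 9 also passed the filter on low counts, which left 13942 genes in the comparison of treatments. RNA was sequenced from hematopoietic stem cells of mouse bone marrow, taken from 4 young and 4 old mice. Each mouse gave a vehicle library and a dmPGE2 library, both after an incubation of 1 hour at 37 °C. The 4 groups were thus young vehicle, young dmPGE2, old vehicle and old dmPGE2, with 4 libraries each, and dmPGE2 is dimethyl prostaglandin E2, which lasts longer than the natural lipid. The labels give age only as young or old, and strain, sex, genotype and the markers used for sorting are not given in the labels. Marrow was treated whole and the stem cells were sorted afterwards, so each library holds cells that were treated beside other marrow cells. Library descriptions carry 2 dates, called date 1 (young mice 477 and 478, old mice 479 and 480) and date 2 (young mice 483 and 484, old mice 485 and 486), and what was done on them is not stated.

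Integrins are pairs of an alpha and a beta chain, and a chain is usually carried to the cell surface only with a partner. The alpha4 chain pairs with beta1 to bind VCAM1 and fibronectin, or with beta7 to bind MAdCAM1. The alpha5 chain pairs with beta1 as a fibronectin receptor, alpha6 with beta1 or beta4 as a laminin receptor, and alphaL with beta2 as the ICAM receptor LFA-1. Selplg encodes PSGL-1, the protein that carries sugar ligands for P- and E-selectin and lets cells roll on endothelium. Vcam1 encodes the counter-receptor of alpha4 integrins, which is known from marrow endothelium, stroma and macrophages and also from blood stem cells.

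Of the alternative partners of alpha4, Itgb1 was the steadiest of the 9 genes across libraries and Itgb7 moved with date, so the 250 bases before each start site are shown for these beta chains (RefSeq, GRCm38.p6). RefSeq promoter sequence was at hand for 4 of the 9 genes, namely Itga4, Itga5, Itgb1 and Itgb7. The Itgb1 window is chr8:128685404-128685653 on the plus strand and the Itgb7 window is chr15:102231936-102232185 on the minus strand. Capitals mark TGACG, the core letters of the cAMP response element, which was searched as TGACG and as CGTCA because prostaglandin E2 receptors signal partly through cAMP.
Itgb1: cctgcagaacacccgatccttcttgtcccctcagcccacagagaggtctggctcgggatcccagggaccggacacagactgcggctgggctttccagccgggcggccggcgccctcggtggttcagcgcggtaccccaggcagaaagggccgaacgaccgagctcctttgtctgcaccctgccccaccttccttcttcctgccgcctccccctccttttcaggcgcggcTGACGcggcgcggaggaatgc
Itgb7: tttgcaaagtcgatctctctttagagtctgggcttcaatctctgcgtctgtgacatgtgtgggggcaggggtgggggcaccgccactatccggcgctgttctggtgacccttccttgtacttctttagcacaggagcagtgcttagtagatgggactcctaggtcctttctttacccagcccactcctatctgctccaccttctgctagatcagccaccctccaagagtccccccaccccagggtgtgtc
This core stood in the Itgb1 window alone of the 4, on the plus strand with its first base at -21, and 17.8% of 32851 promoter windows of this length held it on either strand. The full site TGACGTCA, which contains the core on both strands, was in none of the 4 windows and in 1.55% of all. G and C made up 68.0% of the Itgb1 window, 64.0% of that of Itga4, 56.0% of that of Itgb7 and 55.6% of that of Itga5. These matches describe letters in the windows and nothing about binding.

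Library totals ran from 12.96 to 19.23 M counts, so that a count of 0 leaves room for 0.156 to 0.231 CPM (counts scaled to library size) and every gene described here lay far above that limit, counting error alone considered. All 14 stem cell markers that were looked up were present, with a summed level of 5206 to 6873 CPM on date 1 and 3746 to 5600 CPM on date 2. Markers of several other blood cells differed by date without overlap. The 16 neutrophil and granulocyte progenitor markers summed to 125 to 309 CPM on date 1 and 2186 to 4644 CPM on date 2. The 10 monocyte markers summed to 474 to 682 and 966 to 1879 CPM, and the 10 T and NK cell markers in the table to 34.6 to 99.0 and 149 to 347 CPM, 1 of them being at 0 throughout date 1. The 9 erythroid markers in the table summed to 64.2 to 101.5 CPM on date 1 and 450 to 1804 CPM on date 2. In such bulk samples more cells of a type and more RNA per cell cannot be told apart. Date is therefore kept in view throughout.

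Per kilobase of gene model, Selplg and Itgb1 had the highest RNA levels of the 9 genes, and Itga4 and Itgal the lowest. Over the 8 vehicle libraries the mean was 106 ± 36 CPM per kilobase for Selplg and 96.7 ± 6.86 for Itgb1 (SD, n = 8 mice). Next came Itga6 (42.6 ± 14.8), Itgb2 (41.2 ± 24.5), Itgb7 (38.1 ± 20.4), Itga5 (29.2 ± 5.18) and Vcam1 (26.0 ± 13.5). Itga4 averaged 10.2 ± 2.45 and Itgal 9.58 ± 8.94 CPM per kilobase. The drops from Itgb1 to Itga6 and from Vcam1 to Itga4 were larger than the SD of either gene, and the other neighbours in this order differed by less than the larger of their SDs. Across all 16 libraries, the highest value was 1.20 times the lowest for Itgb1, 2.08 times for Itga4, 7.16 times for Itgb2 and 22.9 times for Itgal.

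**Figure D1:**
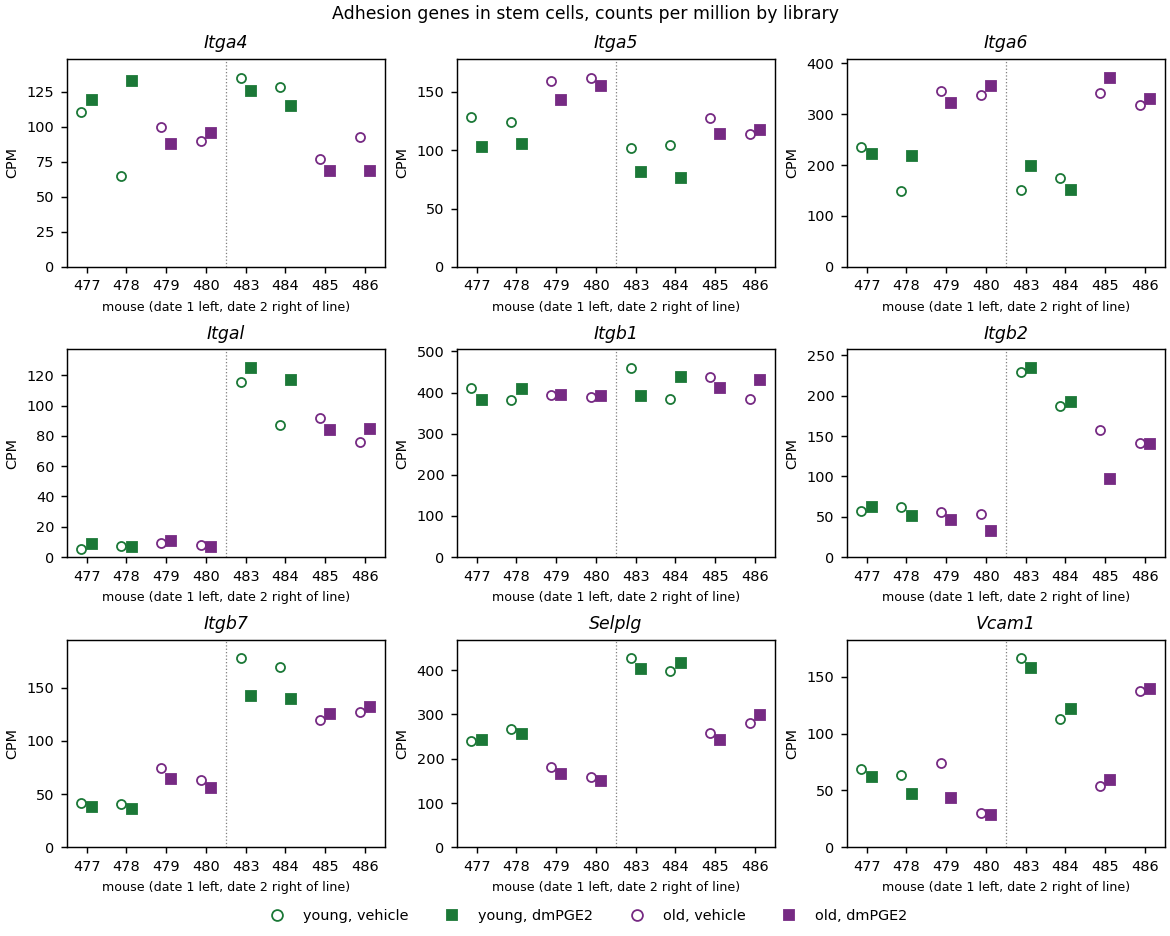
Level of each gene in CPM (vertical axis, linear from 0) in the vehicle and dmPGE2 libraries of the 8 mice, with date 1 left and date 2 right of the dotted line. Itgb1 stayed between 382 and 459 CPM, Itga6 was higher in every old library, and Itgal ran up to 10.4 CPM on date 1 and from 76.0 CPM upwards on date 2.

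The alpha4 gene Itga4 lies at chr2:79255426-79333114 on the plus strand (mm10), and 1124 bases of its exons overlap the antisense gene Cerkl, whose reads cannot be told from those of Itga4 where the strand used in counting is not given. In young vehicle libraries Itga4 stood at 110.5, 64.8, 135 and 128.5 CPM (mice 477, 478, 483 and 484), and in old vehicle libraries at 99.9, 90.0, 77.3 and 92.5 CPM (mice 479, 480, 485 and 486). In dmPGE2 libraries it stood at 119, 132, 126 and 115 CPM in the same young mice and at 87.8, 95.4, 68.7 and 68.7 CPM in the old. The ages overlapped among vehicle libraries only through mouse 478, whose vehicle library was the lowest of all young libraries at 64.8 CPM, while its dmPGE2 library was the highest of the dmPGE2 libraries at 132 CPM. After dmPGE2 every old library lay below every young one.

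The beta1 gene Itgb1 (chr8:128685654-128733579, plus strand) is the partner that alpha4, alpha5 and alpha6 share. Its lowest value in any library was 382 CPM and its highest 459 CPM. In young mice it averaged 410 ± 35.7 CPM with vehicle and 405 ± 23.9 CPM with dmPGE2 (SD, n = 4 each). Old mice averaged 401 ± 24.7 and 407 ± 17.8 CPM. No grouping of the libraries by age, treatment or date separated its values.

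The beta7 gene Itgb7 (chr15:102215995-102231935, minus strand) differed sharply between dates and, within each date, between ages. In vehicle libraries of date 1 it stood at 41.2 and 40.9 CPM in young and at 75.0 and 62.9 CPM in old mice. In vehicle libraries of date 2 it stood at 178 and 169 CPM in young and at 120.0 and 127 CPM in old mice. Old libraries were thus the higher ones on date 1 and the lower ones on date 2. The dmPGE2 libraries kept that order, with 37.9 and 36.2 CPM in young against 64.6 and 55.8 in old mice on date 1, and 143 and 139 against 126 and 132 on date 2.

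The fibronectin receptor gene Itga5 (chr15:103344286-103366748, minus strand) was highest in old mice of date 1. Its vehicle levels were 129 and 124 CPM in young and 159 and 162 CPM in old mice on date 1. On date 2 they were 102 and 105 CPM in young and 128 and 114 CPM in old mice. After dmPGE2 the young mice stood at 103, 105, 80.9 and 76.3 CPM and the old at 143, 155, 114 and 118 CPM. Old libraries lay above young ones of the same date in both arms, and among dmPGE2 libraries also across the dates.

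The laminin receptor gene Itga6 (chr2:71786939-71858427, plus strand) separated the ages in every arm and on each date. In young mice it ran from 148 to 235 CPM with vehicle and from 150.1 to 222 CPM with dmPGE2. In old mice it ran from 318 to 345 CPM with vehicle and from 322 to 371 CPM with dmPGE2. Old vehicle libraries also lay close together, with a mean of 335 ± 11.8 CPM against 177 ± 40.6 CPM in young vehicle (SD, n = 4 each).

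The LFA-1 chains Itgal (chr7:127296260-127335137, plus strand) and Itgb2 (chr10:77530348-77565674, plus strand), which leukocytes use to hold on to ICAMs, separated the dates. Itgal stood at 5.45, 7.27, 9.29 and 8.13 CPM in the vehicle libraries of date 1 and at 115, 87.2, 91.7 and 76.0 CPM in those of date 2. Itgb2 stood at 56.5, 61.8, 55.8 and 52.8 CPM on date 1 and at 229, 187, 158 and 142 CPM on date 2. No library of date 1 reached the lowest of date 2 for either gene, in either arm. The lowest Itgb2 value of date 2 was 97.3 CPM, in the dmPGE2 library of old mouse 485.

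The selectin ligand gene Selplg (chr5:113817798-113830501, minus strand) differed by age on each date and by date in each age. Its vehicle levels on date 1 were 241 and 266 CPM in young and 182 and 160 CPM in old mice. On date 2 they were 426 and 398 CPM in young and 259 and 281 CPM in old mice. Within each date every young library lay above every old one, while old mice of date 2 overlapped young mice of date 1. The dmPGE2 libraries showed the same separation within dates, with 243, 256, 403 and 416 CPM in young and 165, 149, 242 and 300 CPM in old mice.

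Vcam1 (chr3:116110020-116129688, minus strand), of which 61 exon bases overlap the antisense gene Gm43109, varied widely between mice of the same age and date. Vehicle levels on date 1 were 69.1 and 63.5 CPM in young and 74.2 and 30.3 CPM in old mice. On date 2 they were 166 and 113 CPM in young and 53.9 and 138 CPM in old mice. The 2 old mice of date 2 thus differed more from each other than the ages did, and their dmPGE2 libraries did the same, at 59.2 and 139 CPM.

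dmPGE2 against vehicle asks what 1 hour of the prostaglandin analogue does to the RNA of these adhesion genes in cells of the same mouse. Over all 8 mice no gene of the 9 rose or fell at an adjusted p under 0.05, against 0.61% of 13942 genes tested (edgeR's quasi-likelihood test with mouse as a block and Benjamini-Hochberg adjustment). Itga5, Itgb2 and Itgb7 had an unadjusted p under 0.05, all with lower values after dmPGE2. Over all 13942 genes 1749 had such a p. DESeq2 called 1 of the 9 genes, Itga5, and limma-voom called 0, where over all genes DESeq2 called 443, limma-voom 149 and edgeR 85. The median log2 change of the 9 genes was -0.03, beside 0.00 over all genes tested.

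Itga5 had the smallest p of the 9 genes. Its level after dmPGE2 was lower in 7 of 8 mice, with a mean log2 difference of -0.20 ± 0.05 SE (95% interval -0.31 to -0.10) and an adjusted p of 0.0846. DESeq2 gave -0.21 with an adjusted p of 0.00994, and edgeR with date in place of the mouse block gave -0.21 with 0.0351. In young mice alone the difference was -0.34 ± 0.07, lower in 4 of 4 mice, with an adjusted p of 0.120 by edgeR and 0.00388 by DESeq2. In old mice it was -0.07 ± 0.07, and the difference between the ages, 0.26 ± 0.10, had an unadjusted p of 0.0194 and an adjusted p of 0.696.

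The leukocyte beta chains followed. Itgb2 was lower after dmPGE2 in 4 of 4 old mice, with a log2 difference of -0.42 ± 0.11 and an adjusted p of 0.318 by edgeR and 0.0483 by DESeq2. Mice 480 and 485 supplied the large differences, from 52.8 to 32.7 CPM and from 158 to 97.3 CPM. In young mice Itgb2 gave -0.02 ± 0.11, and the difference between the ages, -0.40 ± 0.16, had an adjusted p of 0.696. Itgb7 was lower in 4 of 4 young mice (-0.22 ± 0.08, adjusted p = 0.298) and in 2 of 4 old mice (-0.06 ± 0.08).

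The other 6 genes gave intervals that bound how large a response could be. For Itgb1 the log2 difference was 0.01 ± 0.05 with a 95% interval of -0.10 to 0.11, and for Selplg it was -0.03 ± 0.04 with an interval of -0.12 to 0.05. Itga6 gave 0.10 ± 0.07 (interval -0.06 to 0.26), Itgal 0.12 ± 0.09 (-0.07 to 0.32), Itga4 0.02 ± 0.11 (-0.22 to 0.27) and Vcam1 -0.15 ± 0.09 (-0.36 to 0.05). For old mice alone and for young mice alone, edgeR called 0 of the 9 genes and 0% of all genes. The unadjusted p was under 0.05 for 1 and for 2 of the 9 genes, and for 1096 and 1785 of all 13942 genes. DESeq2 called 1 gene in each age, Itgb2 in old and Itga5 in young mice, with 114 and 277 calls over all genes. The difference between the ages was called for 0 of the 9 genes and 0% of all genes. An unadjusted p under 0.05 was found for 2 of the 9 genes and for 955 of all 13942.

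**Figure D2:**
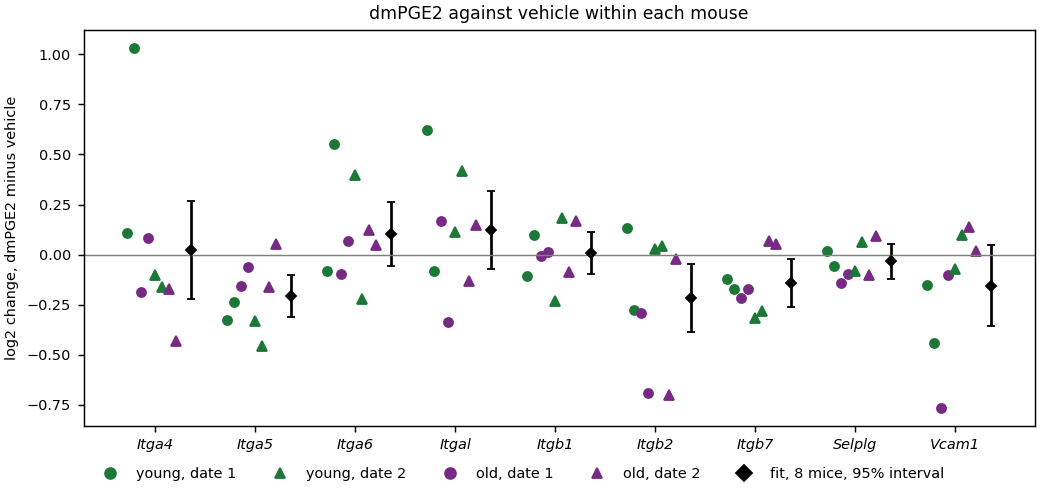
Log2 difference between the dmPGE2 and the vehicle library of each mouse (colored points, circles date 1 and triangles date 2) and the edgeR estimate over 8 mice with its 95% interval (black diamonds). Points of most genes lie on both sides of 0, Itga5 lies below 0 in 7 of 8 mice, and the highest single point, 1.03, is Itga4 in young mouse 478.

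The dates were also taken apart, because other genes responded to dmPGE2 more often on date 1 (2.93% of genes called) than on date 2 (0.387%). Within each date edgeR called 0 of the 9 genes, with an unadjusted p under 0.05 for 4 genes on date 1 and for 1 on date 2. Over all 13942 genes it was under 0.05 for 1912 on date 1 and for 1203 on date 2. Vcam1 was lower after dmPGE2 in 4 of 4 mice of date 1, by -0.36 ± 0.11 with an adjusted p of 0.138, and gave 0.04 ± 0.11 on date 2. The sum of the 10 macrophage markers moved with it and was lower after dmPGE2 in the same 4 mice. It went from 352 to 296, 314 to 231, 358 to 277 and 185 to 135 CPM. On date 2 it was lower in mouse 483 and higher in mice 484, 485 and 486, as Vcam1 was. This was not particular to macrophage markers. The sum of the 10 monocyte markers went the same way as Vcam1 in each mouse of both dates. Endothelial and B cell sums also fell in the 4 mice of date 1, but did not follow Vcam1 in every mouse of date 2. The C1qa, C1qb and C1qc genes of the macrophage list, summed, also fell in each mouse of date 1. On date 2 their sum fell in mouse 483 and rose in mouse 485, as Vcam1 did. It fell in mice 484 (195 to 168 CPM) and 486 (214 to 209 CPM), where Vcam1 rose. The part of these markers in the Vcam1 values was not tested. Without mouse 480 the value on date 1 was -0.53 with an adjusted p of 0.0480. Itga4 gave 0.26 ± 0.13 on date 1 and -0.22 ± 0.13 on date 2, where it was lower in 4 of 4 mice. Without mouse 477 its difference on date 1 was 0.49 with an adjusted p of 0.0369, a value that then rested on the low vehicle library of mouse 478. The change of response between dates was called for 0 of the 9 genes and for 1.08% of all genes. Itga4 (-0.48 ± 0.18) and Vcam1 (0.41 ± 0.15) had an unadjusted p under 0.05, as did 1348 of all 13942 genes. Without mouse 477 the change of Itga4 was -0.71 with an adjusted p of 0.0419.

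Other genes of adhesion and homing were counted against the same shares of all genes, 0.61% over all mice, 2.93% on date 1 and 0.387% on date 2. Tested over all mice were 15 other integrin chains, 15 integrin ligands and 36 activators and adaptors. Added to these were 21 genes of selectins and selectin ligand synthesis and 16 homing receptors and signaling genes. Of these lists 0 genes were called by edgeR, and 1, 2, 5, 3 and 5 in that order had an unadjusted p under 0.05. Over all 13942 genes 1749 had such a p. Within dates the homing list held all the calls. S1pr1, the receptor that guides blood cells along sphingosine 1-phosphate, rose 2.91-fold on date 1 (log2 1.54 ± 0.08, adjusted p = 1.87e-07), and its response was smaller on date 2 (difference -1.35 ± 0.11, adjusted p = 2.86e-05). Cxcr4, the receptor that retains stem cells in marrow, fell by 0.78 on the log2 scale on date 1 (SE 0.14, adjusted p = 0.00944). That call was lost without mouse 478 (adjusted p = 0.139) or mouse 480 (adjusted p = 0.137). Jam2, a junctional adhesion molecule, rose 1.83-fold on date 2 (adjusted p = 0.00396, and 0.0875 by limma-voom).

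Old against young in vehicle libraries asks how adhesion genes differ with age without treatment. In old mice Itga6 was 1.87-fold higher and Selplg 1.53-fold lower, and Itga5 was 1.20-fold higher. These were 3 of the 9 genes, 2 higher and 1 lower, against 17.3% of 13369 genes tested (edgeR with a term for date, n = 4 mice per age). The shared partner Itgb1 gave a log2 difference of -0.05 ± 0.07 (95% interval -0.21 to 0.11). Some marker lists also separated the ages within each date, both arms included, where each age has only 2 mice. Several lists were, like Itga6, higher in old mice. Stem cell markers summed to 5979 to 6873 against 5206 to 5620 CPM on date 1. On date 2 they summed to 5271 to 5600 against 3746 to 4037 CPM. Megakaryocyte and platelet markers were higher too, at 863.5 to 938.5 against 333 to 427 and 705 to 988 against 295 to 429.5 CPM. Endothelial markers were higher as well, at 569 to 653 against 503 to 566.5 and 515 to 585 against 380 to 423 CPM. T and NK cell markers, like Selplg, were lower in old mice, with 34.6 to 62.0 against 70.7 to 99.0 CPM and 149 to 221 against 297 to 347 CPM. The part of these lists in the age differences was not tested.

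Itga6 differed by 0.90 ± 0.12 on the log2 scale with an adjusted p of 0.000764, without overlap between ages, and it was called under each of the 15 alternatives tried. Selplg differed by -0.61 ± 0.07 with an adjusted p of 0.000284 and was called in 14 of 15 alternatives. The exception was the fit without a term for date (-0.62, adjusted p = 0.170), in which the difference between dates adds to the spread. Itga5 differed by 0.26 ± 0.07 with an adjusted p of 0.0322 and was called in 6 of 15 alternatives. Leaving out any of mice 477, 478, 479, 480, 483 or 485 raised its adjusted p above the threshold, to between 0.0548 and 0.110.

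Of the genes not called, Itgb2 gave -0.32 ± 0.10 (adjusted p = 0.0552) and was called by DESeq2, by limma-voom and without mouse 477 (adjusted p = 0.0334, 0.0280 and 0.0413). Itga4 gave -0.28 ± 0.19 (adjusted p = 0.340), and without mouse 478 it gave -0.48 with an adjusted p of 0.0259. Vcam1 gave -0.47 ± 0.33 with an interval of -1.21 to 0.28. Itgal gave 0.02 ± 0.18 and Itgb7 0.10 ± 0.21 over both dates, a mean that for Itgb7 joins opposite values.

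Among dmPGE2 libraries, which came from the same 8 mice and so are no independent sample of the ages, 5 of the 9 genes were called, 2 higher and 3 lower in old mice, against 14.3% of 13279 genes. Itga6 gave 0.81 ± 0.11 (adjusted p = 0.000817), Itga5 0.53 ± 0.07 (0.000781) and Selplg -0.64 ± 0.08 (0.000440). Itga4 gave -0.64 ± 0.09 (adjusted p = 0.00130), 1.56-fold lower in old mice, and Itgb2 -0.70 ± 0.15 (0.0105), 1.63-fold lower. Itga4 and Itga6 were called in 15 of 15 alternatives, Itga5 and Selplg in 13 and Itgb2 in 12. Whether the age difference itself changed with dmPGE2 is the difference of responses given above, which was called for 0 of the 9 genes.

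**Figure D3:**
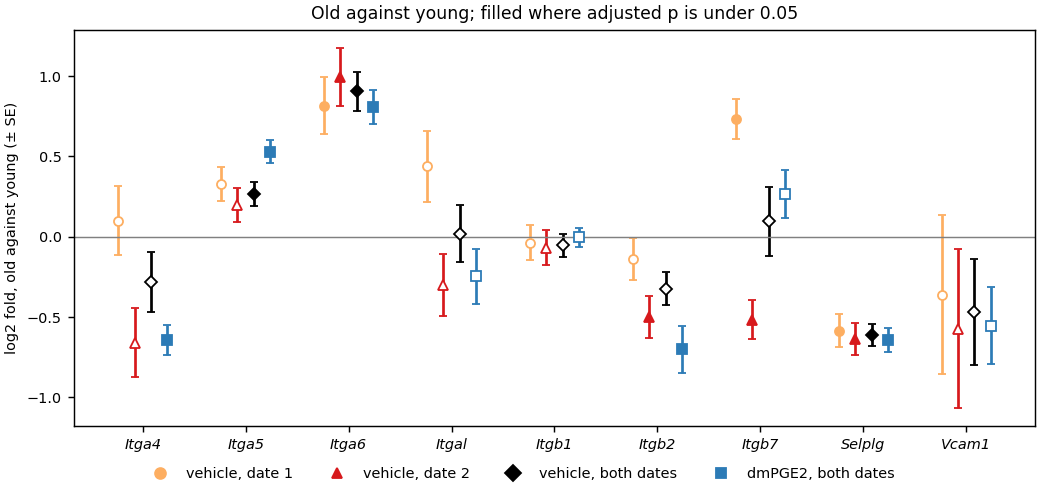
Log2 difference between old and young mice with its SE for each gene, in vehicle libraries of date 1, of date 2 and of both dates, and in dmPGE2 libraries. Filled marks have an adjusted p under 0.05. Itga6 lies above 0 and Selplg below 0 in all 4 comparisons, while Itgb7 stands at 0.73 on date 1 and at -0.51 on date 2.

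Within single dates the age difference in vehicle libraries rested on 2 mice per age. On date 1, 3 of the 9 genes were called against 6.47% of all genes, and on date 2, 4 against 7.91%. Itga6 gave 0.82 ± 0.18 on date 1 (adjusted p = 0.0254) and 0.99 ± 0.18 on date 2 (0.0113). Selplg gave -0.58 ± 0.10 (0.0101) and -0.64 ± 0.10 (0.00700). Itgb2 gave -0.14 ± 0.13 on date 1 and -0.50 ± 0.13 on date 2 (0.0441). Itga4 was not called by edgeR, with 0.10 ± 0.21 on date 1 and -0.66 ± 0.21 on date 2 (adjusted p = 0.0947, and 0.02275 by DESeq2). Its difference between the dates, -0.76 ± 0.30, had an unadjusted p of 0.0309 and an adjusted p of 0.845 by edgeR. With single mice left out, the date 1 call of Itga6 was lost without mouse 478, 479 or 480 (adjusted p = 0.0871, 0.105 and 0.131) and its date 2 call without mouse 483 or 485 (0.0558 and 0.0683). That of Selplg was lost on date 1 without mouse 478 or 480 (0.0888 and 0.117) and on date 2 without mouse 485 (0.0589). The date 2 call of Itgb2 held in 4 of 12 alternatives. It was lost with no filter (0.0509) and without any single mouse other than 484 (0.0536 to 0.202).

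Itgb7 was 1.66-fold higher in old mice on date 1 (log2 0.73 ± 0.13, adjusted p = 0.00926) and 1.43-fold lower on date 2 (-0.51 ± 0.12, adjusted p = 0.0323). The difference between these values, -1.25 ± 0.17, had an unadjusted p of 3.24e-05 and an adjusted p of 0.146 by edgeR, which called 0 of the 9 genes and 0% of all genes for this difference. DESeq2 gave an adjusted p of 5.71e-06 for it. The sum of the 16 neutrophil and granulocyte progenitor markers reversed too, but it joins markers that differed between the ages in unlike ways. On date 1 it was 265 to 309 CPM in old against 125 to 164 CPM in young libraries. On date 2 it was 2186 to 2285 against 3354 to 4644 CPM. The sum on date 1 was mostly Prtn3 (107 to 301 CPM), with Mpo at 1.91 to 21.1 CPM. On date 2 Mpo stood at 908 to 2468 CPM and Prtn3 at 175 to 361 CPM. Prtn3 itself did not reverse. Over both dates it ran from 257 to 361 CPM in old and from 107 to 208 CPM in young libraries. The lowest Mpo values, all of date 1, were lower in old mice. They were 2.01 CPM in old and 7.64 CPM in young vehicle libraries, and 1.91 and 9.14 CPM in dmPGE2 libraries. The sum therefore does not show that any single marker reversed. On date 2 old libraries were also lower without overlap in erythroid (450 to 664 against 1616 to 1804 CPM) and monocyte markers (966 to 1234 against 1297 to 1879 CPM). The part of these markers in the Itgb7 values was not tested. With single mice left out, the call on date 1 was lost without mouse 478 (adjusted p = 0.0790) or 479 (0.0732). The call on date 2 was lost without mouse 483, 484, 485 or 486 (0.110, 0.0936, 0.162 and 0.0916).

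Date 2 against date 1 is no comparison the study set out to make, but more of these genes were called between the dates (5) than between the ages in vehicle libraries (3). Of the 9 genes 4 were higher and 1 lower on date 2 in vehicle libraries, against 11% of 13369 genes, and the same 5 were called under each of the 12 alternatives tried. Itgal was 12.3-fold higher (log2 3.62 ± 0.19, adjusted p = 7.18e-07), Itgb2 3.11-fold (1.64 ± 0.11, 3.22e-06), Itgb7 2.74-fold (1.45 ± 0.22, 0.00161) and Selplg 1.60-fold (0.68 ± 0.07, 8.44e-05). Itga5 was 1.28-fold lower (-0.36 ± 0.07, 0.0105). Markers of granulocytes, monocytes, T and NK cells and erythroid cells were higher on the same date, as given above. The stem cell sum had a lower median on date 2 (4654 CPM) than on date 1 (5800 CPM). The part of these markers in the differences was not tested.

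Itgb1 (0.07 ± 0.07), Itga6 (-0.15 ± 0.12) and Itga4 (0.21 ± 0.19) were not called between dates. Vcam1 gave 0.97 ± 0.33 with an adjusted p of 0.0997, which became 0.0352 without mouse 479 and 0.0169 without mouse 485. Other leukocyte adhesion genes were also higher on date 2. Of 15 other integrin chains 4 were higher and 0 lower, with Itgam, the alpha chain of the complement receptor Mac-1, 10.5-fold higher (log2 3.40 ± 0.34) and Itgax 35.4-fold (5.15 ± 0.78). Itgb5 was 2.41-fold higher, and Itga1 was 9.29-fold higher with a call that was lost without mouse 477 (adjusted p = 0.0552). Itgax and Itga1 stood at low levels (mean log2 CPM 2.14 and 1.87). Of 14 ligands, Thbs1 (thrombospondin) was 12.8-fold higher and Emilin1 1.25-fold lower, the latter call being lost without mouse 477, 478, 480, 483 or 486 (adjusted p = 0.0526 to 0.0818). Of 35 activators and adaptors 2 were called, both higher, namely Rasgrp2, an exchange factor for Rap1 (1.70-fold), and Skap1, a partner of Fyb (2.90-fold). Of 16 homing genes 2 were higher and 3 lower, among them S1pr1 (2.22-fold higher), Robo4 (1.60-fold lower) and Esam (1.37-fold lower).

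Ratios between chains were taken at the level of RNA per kilobase. In bulk RNA they do not show whether the chains lie in the same cells or pair there. The ratio of Itgb7 to Itgb1 ran from 0.139 to 0.298 on date 1 and from 0.430 to 0.690 on date 2. The ratio of Itgal to Itgb2, the LFA-1 pair, ran from 0.0528 to 0.125 on date 1 and from 0.256 to 0.471 on date 2, so the alpha chain rose more than its partner. The ratio of Itga6 to Itga4 was 1.82 to 3.74 with vehicle in young mice and 5.62 to 7.21 in old ones. After dmPGE2 the values were 2.14 to 3.05 for the young and 5.998 to 8.83 for the old. The ratio of Itga5 to Itga4 was 1.45 to 1.94 in young and 3.66 to 3.86 in old dmPGE2 libraries, whereas in vehicle libraries the ages overlapped (1.70 to 4.30 and 2.76 to 4.05), the 4.30 being mouse 478.

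**Figure D4:**
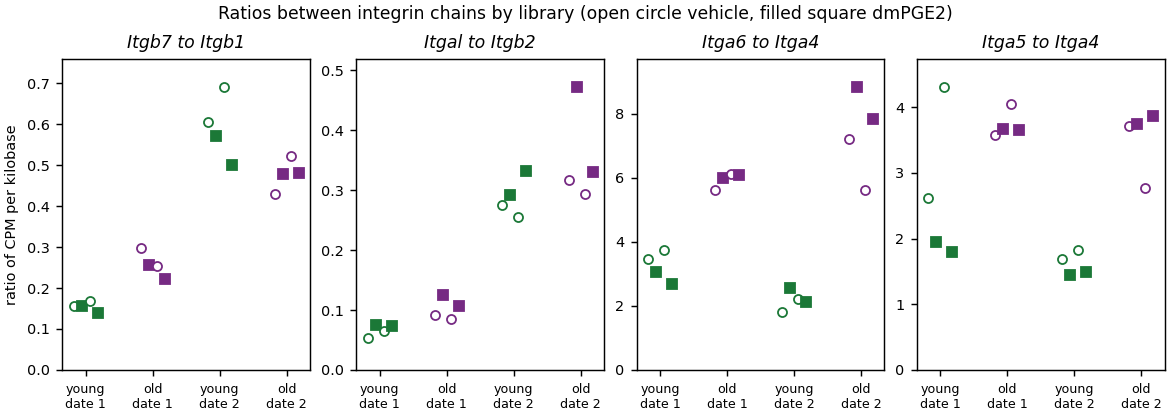
Ratios of CPM per kilobase between integrin chains in each library, by age and date (open circles vehicle, filled squares dmPGE2). The ratios of Itgb7 to Itgb1 and of Itgal to Itgb2 separate the dates, and the ratio of Itga6 to Itga4 separates young libraries (at most 3.74) from old ones (at least 5.62).

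Related genes were compared between the ages in vehicle libraries, where 17.3% of all genes were called. Of 15 other integrin chains 2 were higher and 3 lower in old mice, with Itgb3, the beta chain of the platelet fibrinogen receptor, 3.57-fold higher (log2 1.83 ± 0.14) and Itga3 3.90-fold higher (1.96 ± 0.27). Itga9 was 3.38-fold lower (-1.76 ± 0.29) and Itgb5 2.05-fold lower (-1.04 ± 0.23). The call of Itgb5 was lost with no term for date (adjusted p = 0.3095) and with date 2 alone (0.293). That of Itga9 was lost with date 2 alone (0.0730). The 8 megakaryocyte and platelet markers summed to 705 to 988 CPM in old and 295 to 429.5 CPM in young libraries. Their part in the values of these chains was not tested. The median log2 difference of these chains was -0.16, beside 0.00 over all genes.

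Of 21 genes of selectins and selectin ligand synthesis 4 were higher and 2 lower in old mice. Selp, which encodes P-selectin, the binding partner of the Selplg product, was 14.2-fold higher (log2 3.83 ± 0.25, adjusted p = 4.09e-05) while Selplg itself was lower. Cd34, a sialomucin of stem and endothelial cells, was 2.39-fold lower (-1.26 ± 0.10). St3gal1, a sialyltransferase of O-linked sugars, was 1.80-fold higher and Chst2, a sulfotransferase of selectin ligands, 2.55-fold higher. Among 35 activators and adaptors 10 were higher and 5 lower. Parvg, an adaptor of the parvin family, was 1.62-fold lower (-0.70 ± 0.06). Fyb, an adaptor that links T cell receptor signals to integrins, was 1.94-fold higher. Ptk2b, a relative of focal adhesion kinase, was 1.47-fold higher and Rapgef3, a cAMP-activated exchange factor for Rap1, 2.12-fold higher. The calls of Ptk2b and Rapgef3 were lost by edgeR with date 2 alone (adjusted p = 0.0655 and 0.168).

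Of 14 integrin ligands 2 were higher and 1 lower in old mice. F11r, a junctional molecule bound by LFA-1, was 1.53-fold higher. Its call was lost by edgeR with no term for date (adjusted p = 0.0860) and with date 2 alone (0.0664). Icam4 was 1.63-fold lower and Lama5, a laminin chain, 2.48-fold higher. The calls of Icam4 and Lama5 were lost without single mice, with adjusted p-values of 0.0576 to 0.0674 without mouse 480, 483, 485 or 486 and of 0.0837 to 0.174 without mouse 477, 478, 479, 480, 483 or 485. Of 16 homing receptors and signaling genes 4 were higher and 2 lower, with Jam2 6.93-fold higher (2.79 ± 0.33), Esam 1.38-fold higher and Rac2, a small GTPase of blood cells, 1.32-fold lower. Prkcz was 10.5-fold higher at a low level (mean log2 CPM 1.83), and its call was lost by edgeR with date 2 alone (adjusted p = 0.103). The call of Esam was lost by edgeR with no term for date (adjusted p = 0.115). Among dmPGE2 libraries the counts higher and lower in old mice were 2 and 3 of 13 other integrin chains, 3 and 1 of 14 ligands, 6 and 3 of 35 activators and adaptors, 5 and 2 of 21 selectin genes, and 5 and 1 of 16 homing genes.

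The genes with patterns most like those of the 9 were looked for over the 16 libraries, as the smallest root mean square distance of standardised log2 CPM among 13001 genes, where identical patterns give 0. The libraries share mice, dates and depth, so these are descriptions. The nearest genes were Cd8a (distance 0.133) and Ccl9 (0.136) for Itgal, Cd53 (0.166) and Upb1 (0.265) for Itgb7, Pirb (0.207) and Ifitm6 (0.208) for Itgb2, and Hmgb2 (0.228) and Trf (0.229) for Selplg. Cd8a was at 0 in 5 of 8 libraries of date 1 and at most at 0.1135 CPM in the others, under the limit that a count of 0 allows. For Itga6 they were Atp8a1 (0.212) and Wwtr1 (0.270). Itga5 (Mtss1l, 0.396, and Efcc1, 0.401), Itga4 (Sart3, 0.448, and Neto2, 0.489) and Itgb1 (Ppm1j, 0.554, and Cyb5r4, 0.697) had no close neighbour. Within the 9 genes the closest pairs were Itgal with Itgb7 (0.330) and Itgal with Itgb2 (0.336), and the farthest was Itga5 with Selplg (1.94).

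Vcam1 lay nearest to C1qc (0.233) and C1qb (0.245), subunits of complement C1q and defining markers of macrophages. Summed over C1qa, C1qb and C1qc, a sum chosen after this likeness was seen, the level was lowest where Vcam1 was lowest, at 37.7 CPM beside 28.2 CPM of Vcam1 in the dmPGE2 library of old mouse 480. It was highest where Vcam1 was highest, at 228.5 CPM beside 166 CPM in the vehicle library of young mouse 483. The old mice of date 2 followed the same order, with 93.0 and 214 CPM of C1q RNA beside 53.9 and 138 CPM of Vcam1 in the vehicle libraries of mice 485 and 486. All 10 macrophage markers were in the table and none was at 0 throughout a date, and their sum ran from 135 to 358 CPM on date 1 and from 285 to 719 CPM on date 2. The part of macrophage RNA in the Vcam1 values was not tested.

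**Figure D5:**
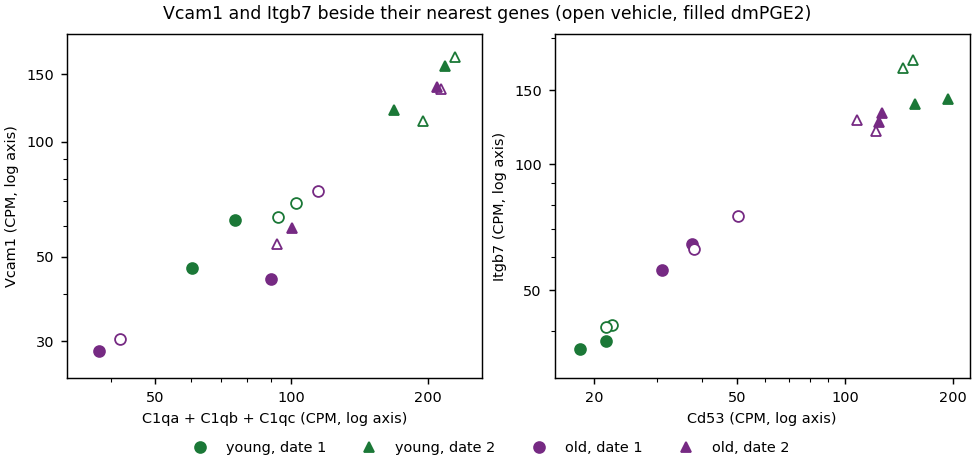
Vcam1 against the summed C1q genes (left) and Itgb7 against Cd53 (right) in the 16 libraries, in CPM on log axes (open marks vehicle, filled marks dmPGE2, circles date 1, triangles date 2). Libraries of old mouse 485 lie with those of date 1 for Vcam1 and C1q, at 53.9 and 59.2 CPM of Vcam1, but with those of date 2 for Itgb7 and Cd53, at 120.0 and 126 CPM of Itgb7.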

How the data were processed

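RNA of 16 libraries from 8 mice was analysed from the raw read counts per gene that the authors deposited, which carried no normalization. STAR 2.5.2b, featureCounts, Subread 1.5.1 and mm10 are named in the submitters' processing notes, and the strand used in counting is not given in the sources used here. The table had 14829 genes, each above 0.5 CPM in at least 2 libraries, and 2504 lines without a gene, which were left out. No column of values was left unmatched to a sample. Totals were 12.96 to 19.23 M counts, with intervals and limits covering counting error only.

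TMM scaling, the filter filterByExpr and a robust quasi-likelihood test came from edgeR 4.0.16 in R 4.3.3. A gene was called where its p, adjusted by Benjamini-Hochberg over all genes tested, was under 0.05. dmPGE2 was tested in 16 libraries with mouse as a block, with a term per age (6 residual degrees of freedom) or per age and date (4). Age was tested in 8 libraries of an arm with a term for date (5), and within dates from the 4 means of age and date (4). SE is the absolute log2 change over the square root of F, and 95% intervals use the test's degrees of freedom. Values in CPM are TMM-scaled, and values per kilobase use the table's gene lengths. The pairing comes from the study's design text, which says that each sample was split. Libraries of a mouse correlated at 0.374 to 0.626 after removal of group means and at 0.014 to 0.181 after removal of group and date means. No libraries of a group agreed within sampling noise, the smallest chi-square per degree of freedom being 6.35.

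Alternatives were DESeq2 1.42.0, limma-voom (limma 3.58.1), RLE factors, no filter, other blocks or date terms, each mouse left out, and single dates, the last chosen after seeing the data. The steps were tested on simulated data. The members, the lists of related genes and of markers, and the naming rule were chosen with earlier results of these data known. The rule named all 9 genes everywhere, up to 4 called genes of each list with the smallest p, and the 2 nearest named genes of each member, predicted genes aside. Related genes were counted but not named for age in the dmPGE2 arm, and not given for age within dates. Some related genes that the rule would name between dates are not reported here. RefSeq windows were used for sequences.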

Additional observations from a re-analysis of the deposited data

Results flagged for a closer look

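Itgb7 was flagged because every old vehicle library lay above every young one on date 1 and below every young one on date 2. The difference between the age effects of the dates was -1.245 on the log2 scale, with an adjusted p of 0.146 by edgeR and 5.71e-06 by DESeq2. The summed neutrophil and granulocyte progenitor markers also reversed without overlap, as a sum of markers that differed between the ages in unlike ways. On date 1 the sums were 265 to 309 CPM in old and 125 to 164 CPM in young libraries. On date 2 they were 2186 to 2285 against 3354 to 4644 CPM. The sum on date 1 was mostly Prtn3 (107 to 301 CPM), which did not reverse and was higher in old libraries on both dates. The sum therefore does not show that any single marker reversed. The part of the summed markers in the Itgb7 values was not tested. No value of a single library stood apart from its group of 4 by Dixon's test. Each group pools the 2 dates, so for genes that differ by date this test could hardly flag a library.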

How the results depend on the processing

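Counts of called genes among the 9 were recomputed under every alternative, and no direction of a called value reversed. For dmPGE2 over all mice the count of 0 became 1 with DESeq2 and 1 without the replicate block but with date (Itga5 in both; 443 and 175 calls over all genes against 85), and stayed 0 with no replicate block and no date. In old and in young mice alone DESeq2 gave 1 each. With single mice left out it ran from 0 to 1 on date 1 and from 0 to 1 for the change between dates. For age, the 3 calls in vehicle libraries became 1 with no term for date and ran from 2 to 3 with single mice left out, while calls over all genes went from 2318 to 971 and to between 1448 and 2129. The 5 calls in dmPGE2 libraries became 2 with no term for date and 2 with date 2 alone (from 1894 to 804 and 264 over all genes), and ran from 5 to 6 with single mice left out. Within dates, leaving out single mice gave 0 to 3 calls on date 1 (115 to 935 over all genes, 865 with all mice) and 0 to 4 on date 2 (297 to 973, against 1057). For the change of the age effect between dates DESeq2 gave 1 (Itgb7). Apart from the fits named, the cause of these changes was not tested.

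Over all genes and alternatives the 9 genes gained 22 calls and lost 39, while 1541 values stayed on their side of the threshold. With 2 mice per age and date, values within dates rest on few animals. The range of totals, 12.96 to 19.23 M counts, did not limit these genes, all of which lay above the limit of a count of 0.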
